A study of Mus musculus with 4 samples.

Results

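Astrocytes release proteins that act on synapses and on the extracellular matrix, and 9 genes for such proteins were followed here through the cells of the injured and the uninjured mouse spinal cord. The genes were the thrombospondins Thbs1, Thbs2 and Thbs4, the matricellular pair Sparc and Sparcl1, the glypicans Gpc4 and Gpc6, the chordin-like gene Chrdl1 and the tenascin Tnc. All are protein-coding, and positions below are those of GENCODE M21 on GRCm38. They were taken by name from the 32285 Ensembl genes of the count matrices, and all 9 were found. Thbs2 and Tnc were higher in injured than in uninjured astrocyte-like cells, Sparc was higher and its relative Sparcl1 lower, and Thbs1, Thbs4 and Chrdl1 were at or near 0 in these cells.

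Thrombospondins are large matrix glycoproteins that promote the formation of structurally complete but silent excitatory synapses. Hevin, the product of Sparcl1, promotes excitatory synapses and bridges the pre- and postsynaptic sides, whereas SPARC opposes hevin. Glypicans 4 and 6, heparan sulfate proteoglycans shed from the astrocyte surface, recruit AMPA receptors, and chordin-like 1, a secreted antagonist of bone morphogenetic proteins (BMPs), promotes synapse maturation. Tenascin-C is a matrix glycoprotein of development and wound repair that is known to be made by reactive astrocytes.

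The mice carried Cx30-CreERT2 and a tdTomato Cre reporter (Cx30-Tom), so that tamoxifen labelled cells that used the gap junction gene Cx30, mainly astrocytes. All animals were young adults of both sexes, and both groups received tamoxifen and, in the blood, a pool of adeno-associated viruses (AAVs) carrying enhancer reporters. The injured group had a contusion of the thoracic cord and was sampled after 3 days, and the uninjured group had no injury. Cord segments of 5 mm, centred on the lesion or taken at the matching level where there was none, were cleared of meninges, digested and sorted for tdTomato, and animals were pooled per condition. RNA was counted from the 3' end with molecular identifiers (UMIs), with 1 gene expression library per condition. No difference below therefore has a replicate check, no p-value was computed, and every 95% interval covers counting error only.

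After a filter on depth, 879 injured and 4159 uninjured cells remained, with a median of 6816 and 3343 gene UMIs per cell. Levels are UMIs per 1000000 gene UMIs (CPM) summed over a group of cells, and are compared between groups for 1 gene at a time. Cells were grouped by clustering without the 9 genes, and clusters were named from marker genes. Astrocyte-like cells numbered 387 in the injured and 3075 in the uninjured library, with median depths of 3931 and 3364 UMIs, and all 10 astrocyte markers were detected in both, with a summed level of 14630 and 18131 CPM. The files shared 7 barcodes, of which 3 were kept in both.

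The libraries differed in ways that touch every ratio. Of the 5 astrocyte-like clusters, cluster 1 (leading genes Gfap, Lcn2, Timp1) took 86.3% of injured but 0.520% of uninjured cells, and clusters 4, 7, 8 and 10 took the rest, so that a ratio between conditions compares mainly cluster 1 with these 4. The study states both sexes for each condition, yet 250 injured and 2 uninjured cells of the whole libraries scored female by Xist without a Y-linked UMI, against 315 and 2770 that scored male. Among astrocyte-like cells 125 injured and 2127 uninjured cells scored male, and ratios in these cells alone are given where they differ. The depth filter removed 40 injured cells, all above 50000 UMIs, and no uninjured cell. Clustered together with the others, 38 of the 40 fell among fibroblast-like cells, of which the injured library then held 81 in place of 43. At Leiden resolution 1.0 fibroblast-like cells formed a cluster of 43 injured and 47 uninjured cells, and another of 48 uninjured cells alone (leading genes Apod, Gsn and Dcn), so that a ratio for this class compares injured cells of 1 cluster with uninjured cells of 2. Fibroblast-like values without the filter and within the shared cluster, both computed after the data were seen, are given where they differ. Clusters 5 and 11, with astrocyte and neuron markers, stayed unnamed and held 55 injured and 884 uninjured cells.

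In astrocyte-like cells 6 of the 9 genes reached a mean of 10 CPM over both conditions, the floor used for a comparison, and Thbs1, Thbs4 and Chrdl1 did not. Of the 6, Thbs2 and Tnc were more than 2-fold higher in injured cells by their log2 ratio with 1 CPM added, none was more than 2-fold lower, and Sparc, Sparcl1, Gpc4 and Gpc6 lay between. Over all 9443 genes at this floor, 13.2% were more than 2-fold higher and 6.96% more than 2-fold lower. The median log2 ratio was 0.28 over the 6 genes and 0.02 over all genes compared. Among all genes, the ratio of Tnc was at the 99.2nd percentile and that of Thbs2 at the 95.9th, followed by Sparc at the 85.4th, Gpc6 at the 29.5th, Gpc4 at the 20.1st and Sparcl1 at the 10.7th.

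**Figure D1:**
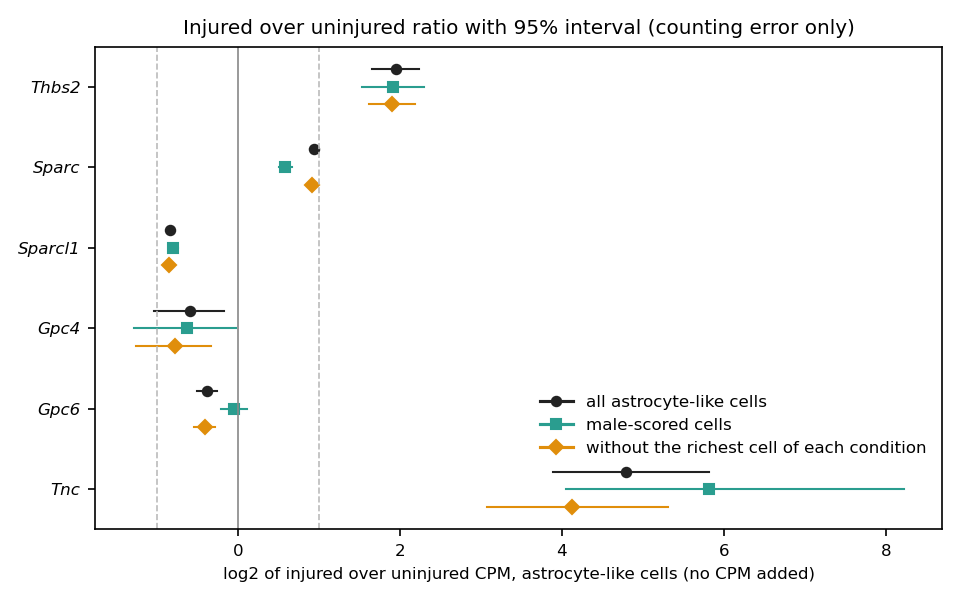
The log2 of the injured over the uninjured CPM in astrocyte-like cells for the 6 genes above the floor (x axis, no CPM added, dashed lines at 2-fold), with 95% intervals that cover counting error only. Circles are all astrocyte-like cells, squares male-scored cells, and diamonds leave out the cell with most UMIs of the gene in each condition; Thbs2 and Tnc lie right of the 2-fold line in all 3, and Gpc6 reaches 0 in male-scored cells.

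The promoters of Thbs2 and Tnc, the genes past 2-fold, were read for letters of motifs bound by factors with a known part in astrocyte reactivity or identity. The 250 bases before the start are shown 5' to 3' on the gene's strand, from RefSeq on GRCm38.p6, at chr17:14694263-14694512 (minus strand) for Thbs2 and chr4:64047016-64047265 (minus strand) for Tnc, and neither overlaps an annotated exon. Capitals mark the letters TTGGC or, on the other strand, GCCAA, which is 1 arm of the palindromic site of nuclear factor I (NFI).
Thbs2: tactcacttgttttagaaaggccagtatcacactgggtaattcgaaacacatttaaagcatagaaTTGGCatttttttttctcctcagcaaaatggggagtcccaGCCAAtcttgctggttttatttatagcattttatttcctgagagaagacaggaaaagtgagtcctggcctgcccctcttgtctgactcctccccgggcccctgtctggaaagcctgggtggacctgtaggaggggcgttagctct
Tnc: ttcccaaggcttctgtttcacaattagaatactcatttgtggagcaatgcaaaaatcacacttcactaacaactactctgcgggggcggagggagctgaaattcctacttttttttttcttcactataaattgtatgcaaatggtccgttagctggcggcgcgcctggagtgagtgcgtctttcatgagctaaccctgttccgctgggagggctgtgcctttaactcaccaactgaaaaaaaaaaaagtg

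Thbs2 had such an arm on each strand, and this Tnc window had none, while the Tnc promoter of a second annotated start held 1. The AP-1 letters TGANTCA, the STAT letters TTCNNNGAA and the full NFI site, which holds the arm, searched on both strands, were in neither, nor in the other promoters at hand, those of Thbs4, Sparc and Gpc4, and of these Thbs4 alone held an arm. The Gpc4 and Sparc windows overlapped annotated exons, by 250 and 210 of their 250 bases, as did that of the second Tnc start by 79 bases, and the Thbs4 window did not. Among 32851 promoters of the same length, 6.75% held the AP-1 letters, 7.02% the STAT letters, 0.0365% the full NFI site and 41.5% an arm. These matches describe letters and not bound sites. Promoters of Thbs1, Sparcl1, Gpc6 and Chrdl1 were not analysed here.

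Thbs2, at chr17:14665500-14694235 (minus strand), encodes thrombospondin 2. It had 184 UMIs in injured astrocyte-like cells, or 83.1 CPM (71.5 to 96.0), and 248 UMIs in uninjured ones, or 21.5 CPM (18.9 to 24.4). The injured level was 3.86-fold higher (3.17 to 4.69), and the intervals of both levels did not overlap. A Thbs2 UMI was found in 91 of 387 injured cells (23.5%) and in 238 of 3075 uninjured cells (7.74%), with at most 10 UMIs in 1 cell. In cells thinned to 1000 gene UMIs these shares were 4.25% and 1.86%, still higher in the injured library, and 34 injured and 66 uninjured cells too shallow to thin were left out. As a reference for free RNA, Thbs2 had 2 UMIs in 126 injured microglia-like cells (1.59% of cells) at a median depth of 14070 UMIs, and 0 UMIs in 70 injured endothelial-like cells (up to 4.29% of cells).

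Thbs2 was higher in injured cells also in male-scored cells and against each uninjured cluster, though the size varied. Male-scored injured cells had 81.7 CPM and male-scored uninjured cells 21.6 CPM (log2 ratio 1.87, 1.53 to 2.30), while the female-scored injured cells had 112 CPM. Injured cluster 1 had 85.2 CPM, and the uninjured clusters ranged from 15.6 CPM in cluster 10 to 27.7 CPM in cluster 8, so that the log2 ratio lay between 2.38 (1.97 to 2.95) and 1.59 (1.28 to 1.97). Within the injured astrocyte-like cells, the 175 cells with a UMI of the reactive markers Lcn2 or Timp1 had 109 CPM and the 212 cells without one 45.3 CPM, a 2.41-fold difference (1.69 to 3.50). The cells with such a UMI were deeper, with a median of 4838 against 3036 UMIs, and the part of depth in this split was not tested.

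Outside astrocyte-like cells, Thbs2 was found in ependymal-like and fibroblast-like cells. Ependymal-like cells line the central canal. Their 144 injured cells had 113 UMIs (66.7 CPM, 54.9 to 80.2), and their 31 uninjured cells had none. With 3 UMIs allowed to the uninjured group, the injured level was 3.52-fold higher. The lower bound of the exact interval was 2.82-fold. These injured cells were also deeper, with a median of 10505 against 4362 UMIs, 23 of the UMIs came from 1 cell, and after thinning 2 of 143 injured cells and 0 of 31 uninjured cells kept a UMI. Fibroblast-like cells had almost equal injured and uninjured levels, of 81.8 and 79.2 CPM (ratio 1.03, 0.641 to 1.71), while in the cluster that both libraries share the uninjured level was 123 CPM (ratio 0.667, 0.379 to 1.24). In the injured library the levels of astrocyte-like, fibroblast-like and ependymal-like cells followed each other in this order, and none exceeded the next beyond counting error.

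Thbs1, at chr2:118111876-118127133 (plus strand), encodes thrombospondin 1, and it was nearly absent from astrocyte-like cells. These cells had 3 UMIs in the injured library (1.35 CPM) and 4 in the uninjured one (0.347 CPM). Most Thbs1 UMIs of the filtered cells came from injured microglia-like cells, with 314 of the 385 in all injured cells, at 166 CPM (148 to 186). The 31 uninjured microglia-like cells had 5 UMIs (42.8 CPM, 13.9 to 99.8), all in 1 cell, without which the level is 0, and the ratio was 3.88 (lower bound 1.65). A UMI was found in 33 of 126 injured cells (26.2%), 1 of which held 78 UMIs, and without that cell the level was 127 CPM.

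The microglia-like class also held UMIs of the macrophage and neutrophil marker lists. Its 7 macrophage markers summed to 871 CPM when injured (7 of 7 detected) and to 1617 CPM when uninjured (5 of 7), and its 5 neutrophil markers to 561 CPM (4 of 5) and 265 CPM (2 of 5). Of the injured cells, 114 had a UMI of these markers and 164 CPM of Thbs1, and 12 had none and 242 CPM, of which all 15 UMIs were in 1 cell. The 114 cells were far deeper, with a median of 15046 against 2271 UMIs. This split thus also sorts cells by depth and cannot decide which cells carried Thbs1. Whether resident microglia or macrophages carried it cannot be told apart here. Fibroblast-like cells had 58.2 and 45.7 CPM in the injured and uninjured libraries and ependymal-like cells 15.3 and 37.9 CPM, with ratio intervals that span 1. The 38 fibroblast-like cells removed by the depth filter held a further 384 Thbs1 UMIs, and with them the injured level of this class was 109 CPM, 2.39-fold above the uninjured one (1.43 to 4.30). OPC-like (oligodendrocyte precursor) and endothelial-like cells of the injured library had no Thbs1 UMI.

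Thbs4, at chr13:92751590-92794818 (minus strand), encodes thrombospondin 4 and was the only 1 of the 9 genes with a single UMI in all 5038 cells, in an injured OPC-like cell. None of 387 injured and none of 3075 uninjured astrocyte-like cells had a UMI, which allows shares of cells with a UMI of up to 0.775% and 0.0976%. Its expression was not detectable at this depth.

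**Figure D2:**
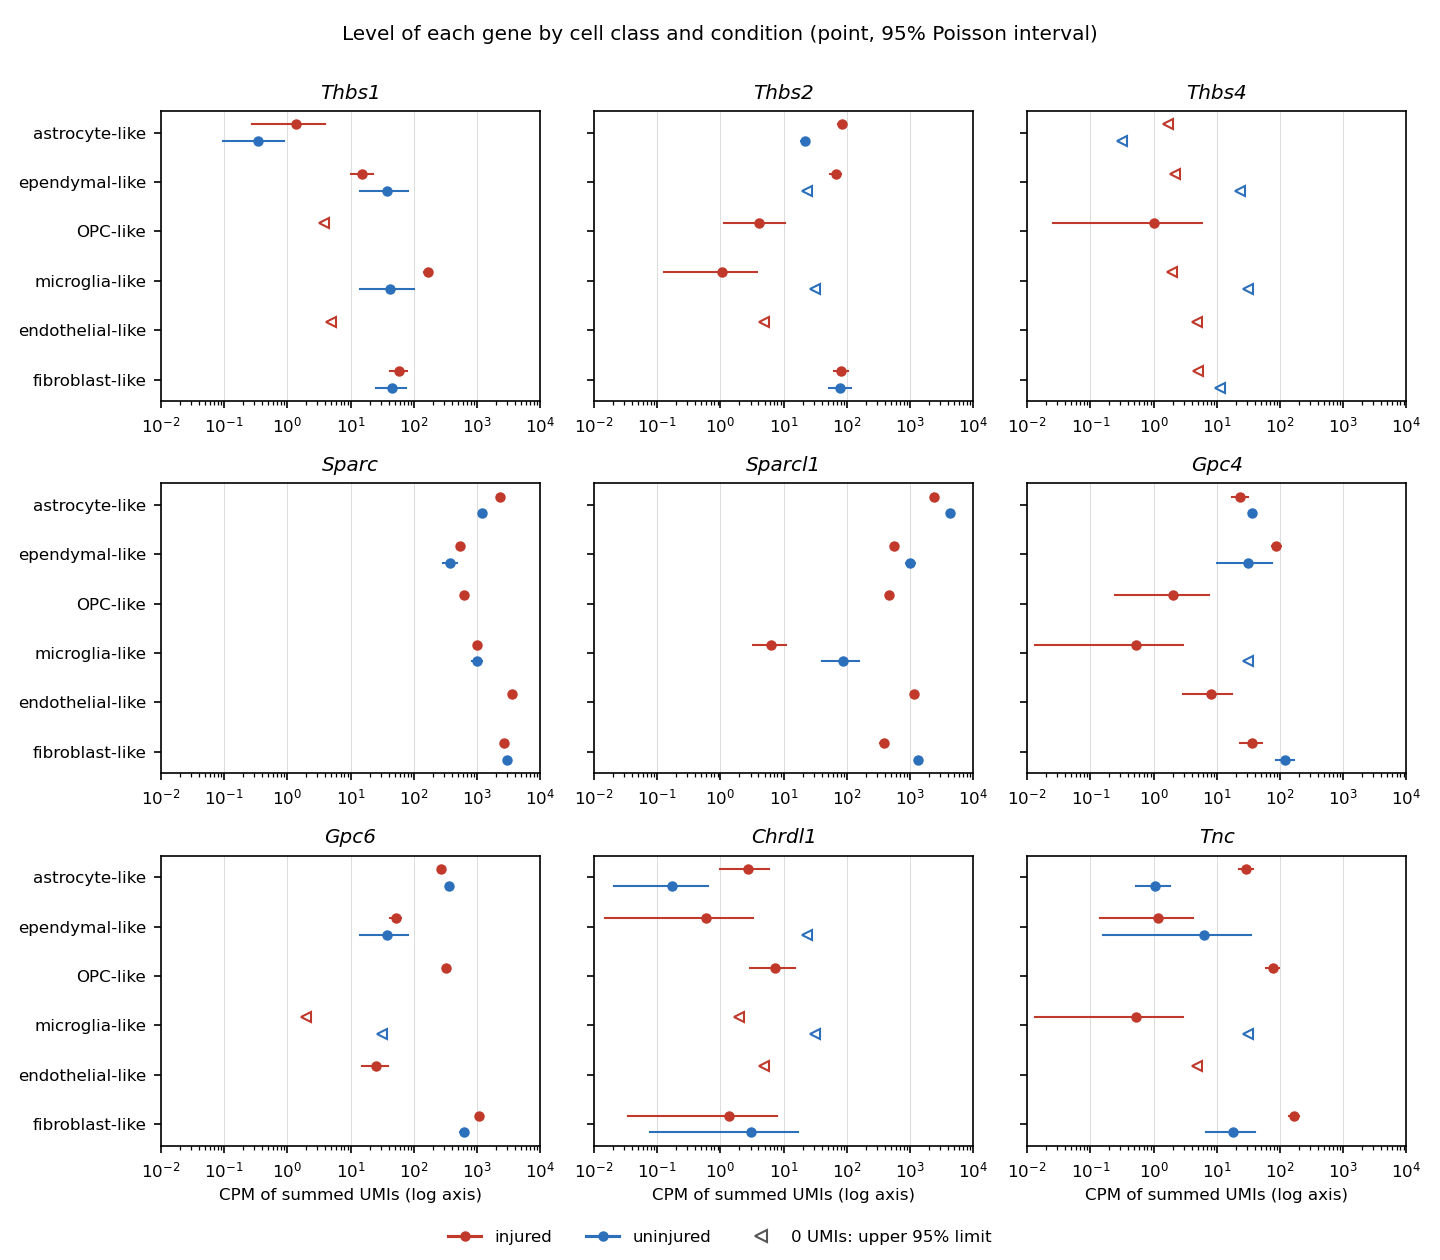
The CPM of each of the 9 genes (log axis) in the cell classes with at least 30 cells, injured in red and uninjured in blue, with 95% Poisson intervals and open triangles at the upper limit where no UMI was found. Thbs1 is highest in injured microglia-like cells (166 CPM), Sparcl1 in astrocyte-like cells among the named classes (4215 CPM uninjured), and Tnc in injured fibroblast-like cells (165 CPM); uninjured OPC-like and endothelial-like cells were too few to plot.

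Sparc and Sparcl1 differed in opposite directions in astrocyte-like cells. Sparc, at chr11:55394500-55423183 (minus strand), encodes a collagen-binding matricellular protein and had 5107 UMIs in injured cells, or 2306 CPM (2243 to 2370), against 13848 UMIs in uninjured cells, or 1202 CPM (1182 to 1223). The ratio was 1.92 (1.86 to 1.98), just under 2-fold. Sparcl1, at chr5:104079111-104113733 (minus strand), had 5203 UMIs in injured cells, or 2349 CPM (2286 to 2414), and 48540 UMIs in uninjured cells, or 4215 CPM (4177 to 4252). It was 1.79-fold lower in injured cells (1.74 to 1.85).

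Thinned cells showed the same directions. A Sparc UMI was kept in 72.2% of the injured cells against 61.4% of the uninjured ones (88.9% and 86.6% unthinned), and a Sparcl1 UMI in 267 of 353 and 2859 of 3009 cells (87.9% and 98.6% unthinned). For Sparc, male-scored injured cells had 1730 CPM and male-scored uninjured cells 1155 CPM, so the direction held in male-scored cells. Female-scored injured cells had 2974 CPM. Only 2 uninjured astrocyte-like cells scored female, so no difference between conditions could be given for female cells. For Sparcl1, male-scored injured cells had 2371 CPM and male-scored uninjured cells 4139 CPM, and female-scored injured cells had 2765 CPM.

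The uninjured clusters were far from uniform for both genes. Sparc ranged from 588 CPM in cluster 4 to 1550 CPM in cluster 10, all below the 2394 CPM of injured cluster 1. Sparcl1 ranged from 2525 CPM in cluster 4 to 5449 CPM in cluster 10, all above the 2318 CPM of injured cluster 1, but for cluster 4 by only 0.12 on the log2 scale (log2 ratio -0.12, -0.19 to -0.06). Cluster 4 was also the shallowest, with a median of 1940 UMIs per cell.

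**Figure D3:**
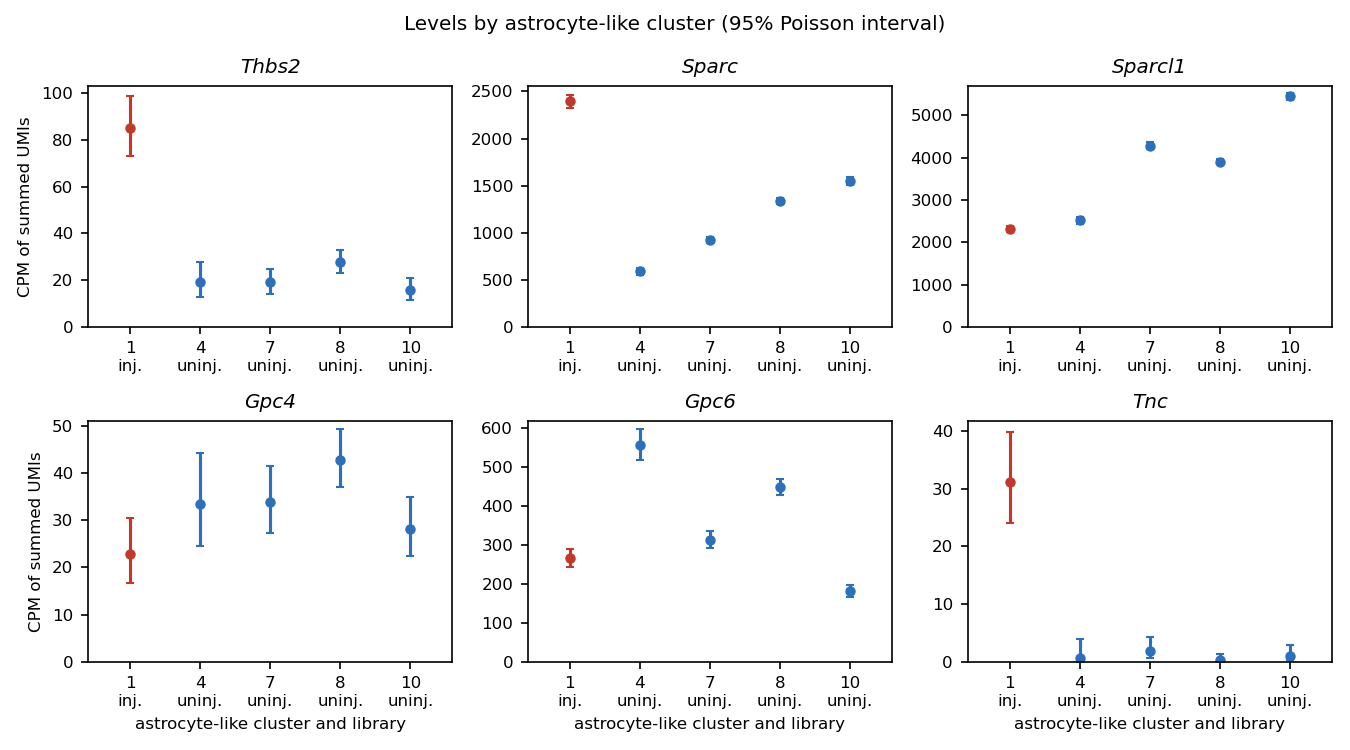
CPM of 6 genes (y axes start at 0) in injured cluster 1 (red) and the 4 uninjured astrocyte-like clusters (blue), with 95% Poisson intervals. Thbs2, Sparc and Tnc in cluster 1 lie above all 4 uninjured clusters, Sparcl1 lies below them, and Gpc6 in cluster 1 (265 CPM) lies between clusters 10 (180 CPM) and 7 (312 CPM).

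Gfap, an intermediate filament gene of reactive astrocytes, divided the cells unevenly between libraries, since 347 of the 387 injured and 498 of the 3075 uninjured cells had a UMI of it. Sparc was higher in cells with a Gfap UMI in both libraries, by 1.87-fold (1.57 to 2.26) in injured and 1.32-fold (1.26 to 1.37) in uninjured cells. The 40 injured cells without a Gfap UMI were shallow, with a median of 1292 against 4151 UMIs, and low in other astrocyte genes, with 133 against 2331 CPM of Aqp4 and 1350 against 3592 CPM of Slc1a2, and the part of either in the Sparc value was not tested. Sparcl1 in uninjured cells was 1.10-fold higher with a Gfap UMI (4549 against 4133 CPM). In injured cells the Sparcl1 levels were 2428 and 634 CPM, the latter from the same 40 cells. Among injured cells Sparcl1 was lower with a Lcn2 or Timp1 UMI than without (2190 against 2579 CPM, ratio 0.849, 0.804 to 0.897), and Sparc was higher (2555 against 1945 CPM, ratio 1.31, 1.24 to 1.39).

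Sparc was found in every class, and the named classes with at least 30 cells in both libraries kept the same order of levels. In the injured library endothelial-like cells were highest at 3609 CPM, followed by fibroblast-like (2670 CPM), astrocyte-like (2306 CPM), microglia-like (996 CPM), OPC-like (634 CPM) and ependymal-like cells (540 CPM), each above the next beyond counting error. In the uninjured library fibroblast-like cells were highest at 3038 CPM, and astrocyte-like (1202 CPM) and microglia-like cells (1009 CPM) did not differ beyond it. Between conditions, ependymal-like cells had a ratio of 1.43 (log2 interval 0.13 to 0.91), microglia-like cells 0.987 (log2 interval -0.29 to 0.26) and fibroblast-like cells 0.879 (log2 interval -0.30 to -0.07). The fibroblast-like value rested on single cells, since without the richest cell of each library it was a log2 ratio of -0.03 (-0.15 to 0.09), and within the shared cluster, with those cells, it was -0.40 (-0.55 to -0.25). Endothelial-like cells, with 26 uninjured cells, had 1462 CPM there.

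Sparcl1 was highest in astrocyte-like cells among the named classes of both libraries. In injured cells the next class was endothelial-like (1135 CPM), 2.07-fold below astrocyte-like cells (1.92 to 2.23). Injured microglia-like cells had 12 UMIs in 126 cells, or 6.35 CPM, which is 370-fold below astrocyte-like cells (212 to 717). This is a reference for free RNA in that class and library alone, and its level in other classes was not measured. Uninjured microglia-like cells had 85.5 CPM. Sparcl1 was lower in the injured than in the uninjured library also in ependymal-like cells (560 against 1009 CPM, 1.80-fold, 1.52 to 2.13) and in fibroblast-like cells (381 against 1324 CPM, 3.47-fold, 2.98 to 4.05). Without the depth filter the injured fibroblast-like level was 176 CPM. Within the shared cluster the uninjured fibroblast-like level was 1027 CPM (injured over uninjured ratio 0.371, 0.301 to 0.460). The 10 astrocyte markers in these classes moved the same way, with sums of 2164 against 3262 CPM in ependymal-like, 1148 against 2475 CPM in fibroblast-like and 56.1 against 248 CPM in microglia-like cells, and the part of astrocyte RNA in these Sparcl1 values was not tested. In endothelial-like cells the levels were 1135 and 1123 CPM.

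Gpc4, at chrX:52053021-52165252 (minus strand), encodes glypican 4. It had 52 UMIs in injured astrocyte-like cells, or 23.5 CPM (17.5 to 30.8), and 409 UMIs in uninjured ones, or 35.5 CPM (32.2 to 39.1). The injured level was 1.51-fold lower (1.13 to 2.06), with intervals that did not overlap. Since the gene is X-linked, male-scored cells are the closer match, and there the levels were 23.9 and 37.0 CPM. Among cells with a UMI of the astrocyte gene Aldh1l1, whatever their cluster, the direction turned, with a log2 ratio of 0.52. The level in cluster 1 (22.9 CPM) was below clusters 7 and 8 beyond counting error and not below clusters 4 and 10.

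Gpc4 was higher in injured ependymal-like and uninjured fibroblast-like cells than in astrocyte-like cells. Injured ependymal-like cells had 149 UMIs in 144 cells (87.9 CPM) and the 31 uninjured cells 5 UMIs (31.5 CPM), a ratio of 2.79 (1.17 to 8.71), opposite to astrocyte-like cells. Of the injured UMIs, 51 were in 1 cell, and without the richest cell of each library the levels were 58.7 and 20.1 CPM, with a log2 interval that includes 0 (-0.04 to 3.85). Thinned shares went the other way, with 4.20% of injured and 6.45% of uninjured ependymal-like cells. In fibroblast-like cells the injured level (36.0 CPM) was 3.38-fold below the uninjured one (122 CPM; 2.01 to 5.77), at median depths of 11336 and 3073 UMIs. That uninjured level came mainly from the cluster without injured cells (187 CPM), and in the shared cluster the direction turned, with 3 uninjured UMIs at 23.0 CPM (ratio 1.57, 0.480 to 8.09). Microglia-like cells had 1 UMI in all.

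Gpc6, at chr14:116925315-117976544 (plus strand), encodes glypican 6. It had 607 UMIs in injured astrocyte-like cells, or 274 CPM (253 to 297), and 4115 UMIs in uninjured ones, or 357 CPM (346 to 368). The level was lower in injured cells by a log2 ratio of -0.38 (-0.51 to -0.26), yet the male-scored cells did not differ beyond counting error, with 350 and 362 CPM (log2 ratio -0.05, -0.21 to 0.11). Uninjured clusters ranged from 180 CPM in cluster 10 to 556 CPM in cluster 4, on both sides of the 265 CPM of injured cluster 1. After thinning, 16.7% of the injured cells kept a Gpc6 UMI against 26.6% of the uninjured ones (39.8% and 54.1% unthinned).

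Fibroblast-like cells had the highest Gpc6 level of the named classes with at least 30 cells in both libraries, and their difference between conditions rested on which cells were counted. They had 768 UMIs in 43 injured cells, or 1065 CPM (991 to 1143), and 205 UMIs in 95 uninjured cells, or 624 CPM (542 to 716). The injured level was 1.71-fold higher (1.46 to 2.00), opposite to astrocyte-like cells, and 149 of the injured UMIs were in 1 cell, without which, and without the richest uninjured cell, the log2 ratio was 0.62 (0.39 to 0.87). Within the shared cluster the uninjured level was 996 CPM and the ratio 1.07 (0.886 to 1.30). Without the depth filter the injured level was 534 CPM, below the uninjured one (ratio 0.855, 0.741 to 0.992). Injured OPC-like cells followed at 326 CPM and astrocyte-like cells at 274 CPM. No microglia-like cell had a Gpc6 UMI, which allows shares of cells with a UMI of up to 2.38% of the 126 injured and 9.68% of the 31 uninjured cells. The 55 unnamed injured cells had 1186 CPM, from 9 cells with a UMI, 1 of which held 75 of the 208 UMIs.

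Chrdl1, at chrX:143285674-143394262 (minus strand), was at the floor of detection. Astrocyte-like cells had 6 UMIs in 3 of 387 injured cells (2.71 CPM, 0.994 to 5.90) and 2 UMIs in 3075 uninjured cells (0.174 CPM, 0.0210 to 0.627), both groups having too few UMIs for a ratio between conditions. At Leiden resolution 1.0, where more injured cells took the OPC-like name, the injured astrocyte-like level was 0.486 CPM, and male-scored cells had 2 UMIs in each library. The injured UMIs were all in cells with a Gfap UMI and all in cells with a Lcn2 or Timp1 UMI. Injured OPC-like cells had 7 UMIs in 6 of 41 cells (7.22 CPM, 2.90 to 14.9). In cells thinned to 1000 UMIs no Chrdl1 UMI was left in astrocyte-like or OPC-like cells of either library.

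Tnc, at chr4:63959785-64047015 (minus strand), was the gene of the set with the largest ratio in astrocyte-like cells. It had 64 UMIs in injured cells, or 28.9 CPM (22.3 to 36.9), and 12 UMIs in uninjured cells, or 1.04 CPM (0.538 to 1.82), a ratio of 27.7 (14.8 to 56.5). A UMI was found in 20 of 387 injured cells (5.17%) and in 10 of 3075 uninjured cells (0.325%), and thinned cells kept one in 1.98% and 0.199%. The injured UMIs were unevenly spread, since 31 of the 64 were in 1 cell. Without the richest cell of each library the levels were 15.2 and 0.869 CPM, and the log2 ratio with 1 CPM added was 3.11 against 3.87 for all cells. It was 2.91 at Leiden resolution 1.0. There the OPC-like name took 70 injured cells in place of 41, at 92.9 CPM of Tnc against 77.4 CPM. The class of part of the Tnc UMIs thus depended on the clustering.

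In the main clustering, all 64 injured Tnc UMIs of astrocyte-like cells lay in cluster 1 and in cells with a Gfap UMI. Of these, 56 were in the 175 cells with a Lcn2 or Timp1 UMI (42.7 CPM) and 8 in the 212 cells without one (8.85 CPM), a ratio of 4.83 (2.29 to 11.7). The richest cell was among the 175, and without it their level was 19.7 CPM from 25 UMIs, a ratio of 2.23 whose interval includes 1 (0.974 to 5.71). The cells with such a UMI were also deeper, as given for Thbs2 above, and the part of depth was not tested. Uninjured cells with a Gfap UMI also had more Tnc than those without, with 9 UMIs in 498 cells (3.98 CPM) against 3 UMIs in 2577 cells (0.324 CPM). Female-scored injured cells had 58.5 CPM and male-scored ones 18.9 CPM, but the cell with 31 UMIs scored female, and without it the order turned, at 11.5 and 18.9 CPM (ratio 0.607, 0.216 to 1.51). Male-scored uninjured cells had 0.336 CPM.

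Tnc was higher still in injured fibroblast-like and OPC-like cells. Fibroblast-like cells had 119 UMIs in 43 injured cells (165 CPM, 137 to 197) and 6 UMIs in 95 uninjured cells (18.3 CPM, 6.70 to 39.8), a ratio of 9.03 (4.03 to 25.1). The UMIs were in 10 injured and 4 uninjured cells, and without the richest cell of each library the levels were 125 and 12.2 CPM. Within the shared cluster the uninjured level was 46.0 CPM and the ratio 3.59 (1.60 to 9.97). Without the depth filter the injured level was 502 CPM and the ratio 27.5 (12.6 to 75.0), since the 38 removed cells held 1844 UMIs. Injured OPC-like cells had 75 UMIs in 41 cells (77.4 CPM), 41 of them in 1 cell, and the 14 uninjured cells had 2. Injured endothelial-like cells had none, and injured ependymal-like and microglia-like cells had 2 and 1.

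Genes that work with these proteins were listed with them, namely 53 relatives, receptors and other matricellular genes, of which 28 reached the floor in astrocyte-like cells. Of these, 5 were more than 2-fold higher in injured cells and 3 more than 2-fold lower, against 13.2% and 6.96% of all genes, and their median log2 ratio was -0.14. The list was chosen by function, with earlier results of these data known.

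Glypicans and their partners went both ways. Gpc5, a further glypican and the listed gene with most UMIs in uninjured astrocyte-like cells, had 7745 CPM there and 1636 CPM in injured ones, a log2 ratio of -2.24 (-2.29 to -2.20). Gpr158, an orphan receptor that binds glypican 4, had 141 CPM in uninjured and 40.2 CPM in injured cells. Gpc1, a further relative, was higher in injured cells (18.1 against 7.47 CPM), as was Ptprf, a receptor phosphatase of the family that binds heparan sulfate (71.3 against 27.8 CPM). The other receptor phosphatases Ptprd and Ptprs had log2 ratios of -0.41 and 0.45.

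Spock2, a proteoglycan of the SPARC family, was lower in injured astrocyte-like cells, with 23.0 CPM against 48.5 CPM, and was far higher in injured endothelial-like cells, at 1338 CPM, where it had most UMIs of the listed genes. Fstl1 and Smoc1 of the same family stayed within 2-fold, as did Nlgn1, a neuroligin, with 1548 CPM in uninjured and 819 CPM in injured cells (log2 ratio -0.92). The thrombospondin relative Thbs3 came close to the 2-fold line from below, with 15.6 CPM in uninjured and 32.1 CPM in injured cells (log2 ratio 0.99 with 1 CPM added), and the thrombospondin receptors Cd47, Lrp1 and Sdc4 had log2 ratios from 0.11 to 0.68, while Nlgn1, listed with them, was below 0 as given above. Cacna2d1, the neuronal receptor for thrombospondins, was under the floor, with 28 UMIs in 3075 uninjured (2.43 CPM) and none in 387 injured astrocyte-like cells.

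**Figure D4:**
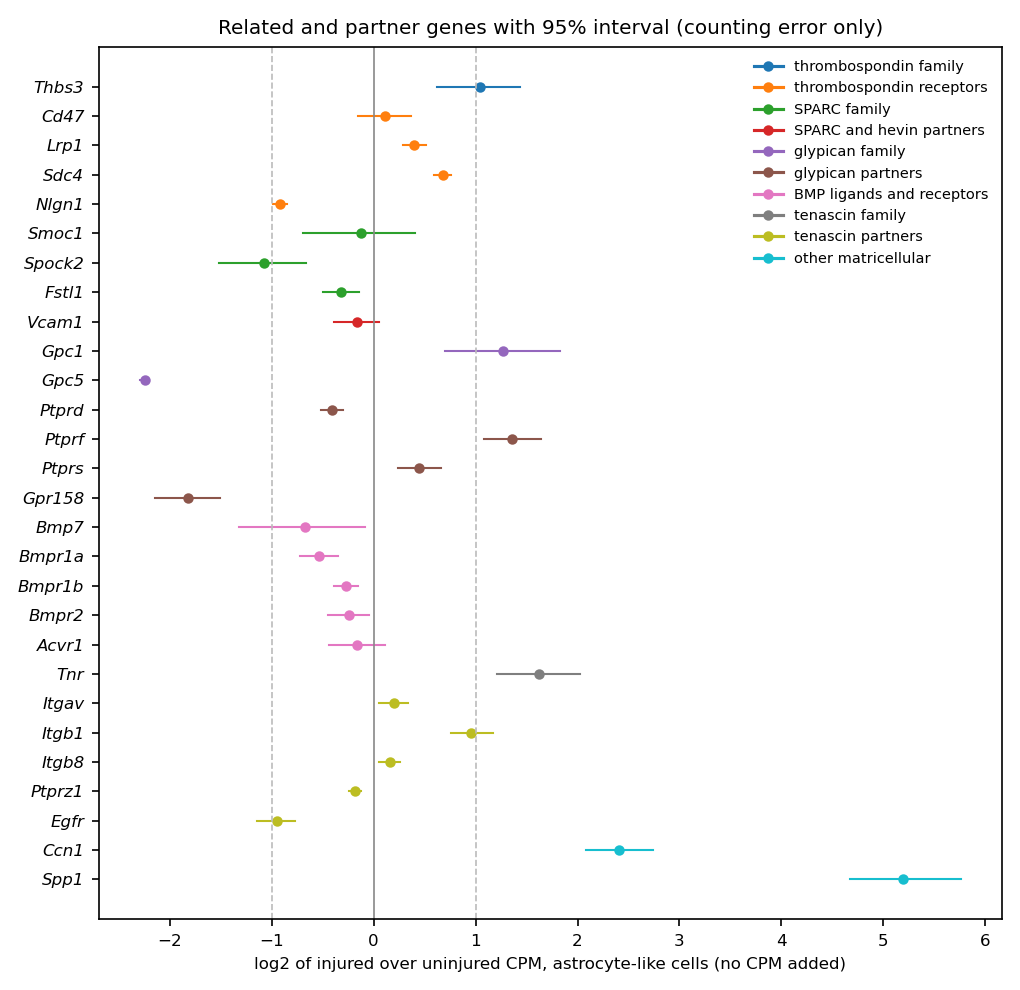
The log2 of the injured over the uninjured CPM in astrocyte-like cells (no CPM added, dashed lines at 2-fold) of the 28 related and partner genes at the floor, coloured by list, with 95% intervals for counting error only. Spp1 (5.19) and Ccn1 (2.41) lie farthest to the right and Gpc5 (-2.24) and Gpr158 (-1.82) farthest to the left; Thbs3 (1.04) lies past the line here and just inside it once 1 CPM is added.

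The matricellular genes Ccn1 and Spp1 and the tenascin Tnr were higher in injured astrocyte-like cells. Ccn1, an integrin ligand of the CCN family, had 13.5 CPM in uninjured and 71.3 CPM in injured cells. Spp1, which encodes osteopontin, had 2.95 and 108 CPM. It was far higher in injured microglia-like (7535 CPM) and fibroblast-like cells (10171 CPM), where it had most UMIs of the listed genes, and at 18.7 CPM in endothelial-like and 8.25 CPM in OPC-like cells of the same library. Of the 239 injured astrocyte-like UMIs, 40 were in 1 cell, and the 8 microglia markers summed to 155 CPM in the former cells (6 of 8 detected, Tmem119 and Csf1r at 0) and 94.6 CPM in their uninjured counterparts (7 of 8). The part of RNA from other cells in the Spp1 value was not tested. Tnr had 12.1 and 37.0 CPM, the latter from 82 UMIs in 42 cells. It led the OPC-like cluster, with 1961 CPM in injured and 2552 CPM in the 14 uninjured OPC-like cells. More injured cells took the OPC-like name at Leiden resolution 1.0, as given for Tnc. The part of such cells in the astrocyte-like Tnr value was not tested.

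Of the 8 listed partners of tenascin-C, 5 reached the floor, and these stayed within 2-fold, as did the BMP genes at the floor. Itgb1, an integrin subunit, had a log2 ratio of 0.95 and Egfr of -0.95, and Ptprz1, a receptor phosphatase that binds tenascins, of -0.18. The 5 BMP genes at the floor, Bmp7 and the receptors Bmpr1a, Bmpr1b, Bmpr2 and Acvr1, had log2 ratios from -0.63 to -0.16, none past 2-fold. The interval of Acvr1 (-0.44 to 0.11) included 0, and the median over all genes compared was 0.02. The listed gene with most UMIs, a count that also depends on the transcript, was Nlgn1 in injured ependymal-like cells (545 CPM), Spp1 in uninjured microglia-like cells (2951 CPM, 339 of 345 UMIs in 1 cell) and Gpc3 in uninjured fibroblast-like cells (1023 CPM).

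Genes whose levels followed those of the set most closely were sought across the 10 groups of class and condition with at least 30 cells, by Pearson correlation of log2(CPM + 10). The groups share 2 libraries and differ in depth, so the values are a description. For Thbs1 they were Isy1 (0.917), Cebpb (0.916) and Timp2 (0.910), and for Thbs2 Col4a5 (0.907), Arhgef25 (0.904) and A2m (0.896). For Sparc they were Tns1 (0.914), Eva1b (0.908) and Dock6 (0.905), and for Sparcl1 they included Arhgef12 (0.964) and Tom1l2 (0.961). For Gpc4 they were Eda (0.942), Stx18 (0.925) and Igfbp5 (0.919), for Gpc6 Runx1t1 (0.947), Prrx1 (0.945) and Ntrk3 (0.941), and for Tnc Rasl11a (0.953), Adam12 (0.947) and Hmga2 (0.942). No gene was named for more than 1 of them, and Thbs4 and Chrdl1 had too few UMIs for this.

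Single astrocyte-like cells seldom showed many of the 9 genes. At 1000 UMIs per cell, 53.5% of both injured and uninjured cells had UMIs of 2 of the genes, 25.8% and 26.7% of 1, and 7.65% and 1.79% of none. UMIs of 3 genes were in 12.5% of these injured and 17.2% of these uninjured cells, and of 4 genes in 0.567% and 0.831%. At full depth, which was higher in injured cells, up to 6 of the genes were found in 1 cell, in 3 injured cells (0.775%) and 1 uninjured cell (0.0325%).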

How the data were processed

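Gene expression was measured in tdTomato-sorted spinal cord cells of 1 injured and 1 uninjured library. The deposited matrices hold raw UMI counts that the authors made with Cell Ranger, version 7.1.0 per the file headers and 8.0.1 per the submitters' processing notes, on mm10. The matrices hold 919 and 4159 barcodes, and the counts were not normalised. The enhancer barcode libraries of the same cells were not used here.

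The study's limits on depth (over 500 and under 50000 gene UMIs) were applied and removed 40 injured cells, 38 of them fibroblast-like when clustered with the rest. After scaling each cell to 10000 and taking logs, 2000 variable genes without the members and partners, 15 principal components, 15 neighbours and Leiden resolution 0.5 gave 13 clusters (scanpy 1.11.5, igraph 0.11.9, scipy 1.17.1, Python 3.11.15). A cluster took the name of 1 of 12 marker lists by the highest scanpy gene score above 0.2, with at least 3 markers in 10% of its cells and no other list leading among its 10 genes with the highest fold. This named 11 clusters in 7 classes. How clusters were scored was decided with the matrices at hand. No doublets were removed: Scrublet marked 2 of 5038 cells, too few for the caller to have worked.

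CPM are UMIs per 1000000 gene UMIs of a group. Intervals are exact Poisson (levels), conditional binomial (ratios) and Clopper-Pearson (shares), each at 95% and for counting error only. Where 1 group was empty, the fold given allows it 3 counts, beside the lower bound of the exact interval. Calls past 2-fold used log2 ratios with 1 CPM added at a mean of 10 CPM or more. In simulated counts with 200 of 9443 genes changed 4-fold between the astrocyte-like groups, 100% were recovered, 1 unchanged gene was called and intervals covered 95.8% of ratios. These counts were drawn as Poisson sums, which the intervals also assume, so this checks the calculation alone. Clumping of UMIs in single cells and differences between libraries were not simulated.

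Members and gene lists were chosen with earlier results of these data known. Named were the 9 members, partners past 2-fold, the highest partner of each class at 50 CPM or more, and for members with 50 or more UMIs the 3 genes of highest correlation among genes at 50 CPM or more; other partners named were chosen after their values were seen. Some genes that these rules name are not reported here. All 9 members matched GENCODE M21 on GRCm38 by identifier. Alternatives changed the clustering, cell filters, sex, scaling, pseudocount, thinning, doublets and richest cells, and levels in groups of 10 to 29 cells, fibroblast-like levels without the filter or by cluster, and splits by markers or sex, were added after the data were seen.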

Additional observations from a re-analysis of the deposited data

Results flagged for a closer look

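Differences between classes are listed where a gene differed between conditions in opposite directions, with neither interval including 0; with 1 library per condition these differences between classes were not tested. Gpc6 had a log2 ratio of 0.77 in fibroblast-like cells and -0.38 in astrocyte-like cells, but the fibroblast-like value was -0.23 (-0.43 to -0.01) without the depth filter and 0.10 (-0.17 to 0.38) in the cluster that both libraries share. Gpc4 had a log2 ratio of 1.45 in ependymal-like cells and -0.58 in astrocyte-like cells, and its interval in ependymal-like cells included 0 without the richest cell of each library. Sparc had a log2 ratio of -0.19 in fibroblast-like cells and 0.94 in astrocyte-like cells, and the fibroblast-like interval also included 0 without those cells.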

How the results depend on the processing

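Each of the 9 log2 ratios (injured over uninjured, 1 CPM added) was recomputed under 13 alternatives. Sparcl1 stayed below 0 and Sparc, Thbs2 and Tnc above 0 in all 13, and Thbs2 and Tnc stayed past 2-fold. Sparc, at 0.94, passed 2-fold at Leiden resolution 1.0 (1.01), with each cell weighing the same (1.01) and when thinned (1.05), and moved to 0.64 in cells with an Aldh1l1 UMI, 0.58 in male cells, 0.99 without a filter on cells, 0.88 without the highest 5% of Scrublet scores and 0.78 with the unnamed clusters counted. Sparcl1 moved to -0.75, -0.98, -0.74, -0.94 and -0.88 at resolution 1.0, with Aldh1l1, without the Scrublet scores, with the unnamed clusters and when thinned. Thbs2 moved to 2.30 with Aldh1l1, 1.56 with 10 CPM added, 1.43 with cells weighing the same and 1.24 when thinned. Tnc moved to 2.91 at resolution 1.0, 2.54 without the Scrublet scores, 1.82 with 10 CPM added, 2.84 with cells weighing the same and 2.83 when thinned. Gpc4 turned to 0.52 with Aldh1l1 and passed 2-fold when thinned (-1.36). Gpc6 moved to -0.05 in male cells, 0.01 with the unnamed clusters, -0.78 with cells weighing the same and -0.88 when thinned. In fibroblast-like cells, under alternatives added after the data were seen, Gpc6 turned from 0.77 to -0.23 without the filter on cells, and in the cluster of both libraries Thbs2 turned from 0.05 to -0.58, Gpc4 from -1.73 to 0.63 and Chrdl1, with at most 1 UMI on each side, from -0.76 to 1.25. The causes were not tested. Without a filter on low values 3 members were above 2-fold, Chrdl1 (1.66) being the third, against 11.8% of all 20662 genes above and 6.08% below. With 10 CPM added, 8.83% of all genes were above and 3.89% below 2-fold. No paired analysis was possible because there was 1 library on either side.

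Depth limits Thbs1, Thbs4 and Chrdl1 in astrocyte-like cells and every value from 31 uninjured ependymal-like or microglia-like cells. Intervals leave out differences between animals, which cannot be told apart from injury, library or sex with 1 library per condition.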
